A study of Homo sapiens with 27 samples.

Results

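A group of 45 genes of chromosome 7, among them the oncogenes MET, BRAF, EZH2, CDK6 and RAC1, was followed through the transcriptomes of 3 prostate cancer cell lines with and without knockout of RIPK2. They were chosen by their measured counts: earlier results of these data showed genes of chromosome 7 at higher levels in knockouts of the 22Rv1 line. They are 45 of 1199 chromosome 7 genes among the 24379 genes of the 22Rv1 count table, and all 45 were found in the tables of the 3 lines. The description "higher in 22Rv1 knockouts" did not hold for the whole group. With the RIPK2 guide RNA named gRNA 1, 34 of the 44 genes tested in 22Rv1 had a log2 fold change above 0, and with gRNA 10 only 24 of 44. MET, CAV1 and CAV2 were far lower with both guides. SMO was left out of the test in 22Rv1, where 8 libraries had 2 to 11 reads and the third gRNA 1 library had 23.

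RIPK2 encodes a kinase that relays signals from the intracellular receptors NOD1 and NOD2, which sense bacterial cell wall fragments, to NF-kB. Chromosome 7 carries several genes that drive cancers when amplified or mutated, including the receptor tyrosine kinase MET, the RAF kinase BRAF and the histone methyltransferase EZH2. Gains of whole chromosomes or arms are common in cancer cell lines. A gain raises the mRNA of most genes of the gained stretch by a similar factor, while regulation of single genes moves them apart from their neighbours. The number of copies of chromosome 7 in these cells was not analysed here, so its part in any result below was not tested.

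RNA had been sequenced in 27 libraries, 9 from each of the lines 22Rv1, DU145 and PC3. Controls were cells with control gRNA 1 and a genotype labelled WT, 3 libraries in every line. RIPK2 had been targeted in each line with gRNA 10 and with another guide, which was gRNA 1 for 22Rv1 and gRNA 2 for the remaining lines (3 libraries per guide). All cells thus carried a guide RNA. The labels name neither clones nor pools, nor do they say whether replicates are separate cultures. The p-values therefore measure only the spread between these libraries, which may be technical, and each population stands for its guide alone. RIPK2 itself, counted first, was 16.7 ± 1.29 CPM (read counts scaled to the size of each library; mean ± SD, n = 3) in 22Rv1 controls against 8.69 ± 0.633 with gRNA 1 and 5.38 ± 0.189 with gRNA 10. Its log2 fold changes were -1.84 and -0.29 in DU145 with gRNA 2 and gRNA 10, and -1.55 and -1.15 in PC3. The fall in DU145 with gRNA 10 did not pass the test (edgeR quasi-likelihood, adjusted p = 0.0614), and an mRNA level does not measure the protein.

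Total counts ran from 17958558 to 20650819 per library. The third 22Rv1 library with gRNA 1 stood apart: 16.7% of its counts were mitochondrial (95% Wilson interval 16.6 to 16.7, which covers counting error only), against 1.92 and 2.10% in the other gRNA 1 libraries. Without it, 7 more of the 44 tested genes were called for gRNA 1 against control and 5 more for gRNA 1 against gRNA 10, and 0 calls were lost in either comparison. The values of these genes without it are given below. The luminal keratin gene KRT8 was at 173 ± 16.6 CPM in 22Rv1 controls, 425 ± 14.4 in DU145 and 344 ± 7.49 in PC3. The mesenchymal gene VIM was at 12.2 to 14.3 CPM in 22Rv1 controls, 604 to 635 in DU145 and 1429.9 to 1483 in PC3. Some markers moved with the guides: VIM in 22Rv1 was at 5.83 to 7.16 CPM with gRNA 10, and the endothelial gene PECAM1 in PC3 went from 1.70 to 2.24 CPM in the controls to 8.75 to 9.71 with gRNA 2. CDH5, the other endothelial gene looked at, stayed at 0.0985 CPM or less in PC3. The part of the marker shifts in the results below was not tested. The immune gene PTPRC was highest in PC3 with gRNA 2, at 0.297 CPM or less. In bulk RNA, fewer cells that express a gene cannot be told apart from less RNA per cell.

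In 22Rv1, 23 of 44 genes were higher and 3 lower with gRNA 1 at an edgeR adjusted p under 0.05, beside 25.6% higher and 22.9% lower (48.5% in all) among all 15198 genes tested. With gRNA 10, 14 were higher and 9 lower, beside 20.0% higher and 20.6% lower (40.6% in all) of all genes. These comparisons chose the genes, so the counts are a description and nothing is read from them. The median log2 fold change of the 44 genes was 0.35 with gRNA 1 (interquartile range 0.12 to 0.53) and 0.04 with gRNA 10 (-0.22 to 0.44), beside 0.02 and 0.00 over all genes. The width of the interquartile range was 0.41 and 0.66 for the group, 0.82 and 0.70 for all genes and 0.81 and 0.75 for the other chromosome 7 genes. Without the third gRNA 1 library the gRNA 1 median was 0.36, with 29 genes higher and 4 lower. The count for gRNA 10, 23 in all, fell to 15, 14 and 15 when the first, the second or the third of its libraries was left out.

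Both 22Rv1 guides gave 8 genes called higher, 3 called lower and 3 called in opposite directions, beside 12.4, 12.3 and 2.43% of all genes tested. The guides share their controls and chose the genes, so nothing is read from these counts. Another 12 were called with gRNA 1 alone and 9 with gRNA 10 alone, and 9 with neither. The 8 were KMT2E, TNPO3, TAF6, ACTB, NFE2L3, POLR2J, STRIP2 and RAC1, and the 3 in opposite directions were JAZF1, CASP2 and PAXIP1, each higher with gRNA 1 and lower with gRNA 10. The fold change lay above 0 with both guides for 22 of 44 genes, beside 36.8% of all genes. Nearest to 0 on the upper side of the smaller of both values were SND1 (0.03) and LIMK1 (0.01), and on the lower side YWHAG (-0.00) and CBX3 (-0.01).

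**Figure D1:**
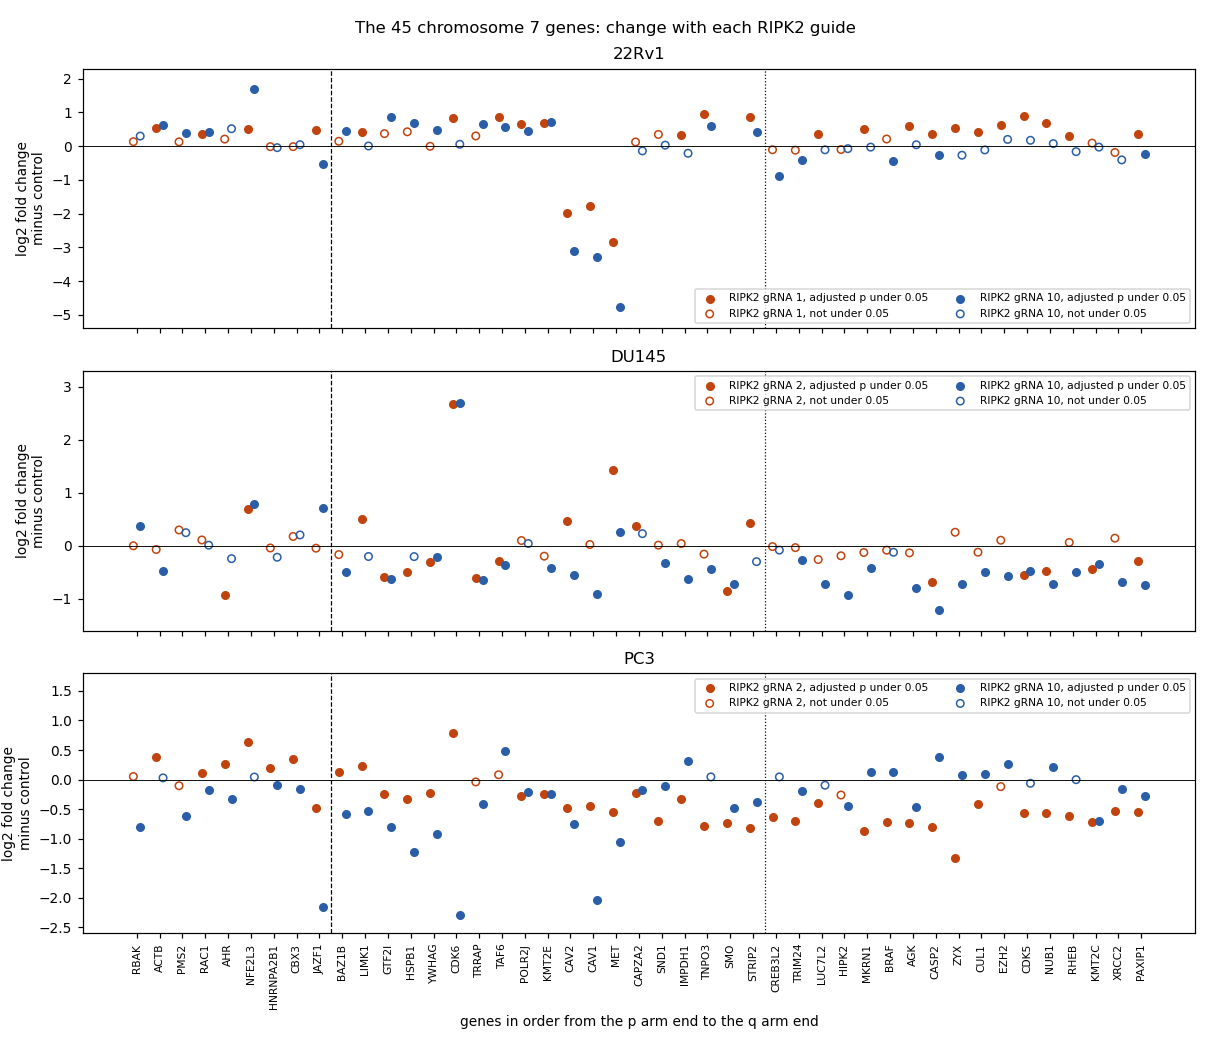
Log2 fold change against control (vertical axes) of the 45 genes in order along chromosome 7 (horizontal axis) in 22Rv1, DU145 and PC3, first RIPK2 guide in orange and gRNA 10 in blue, filled where the edgeR adjusted p was under 0.05. The dashed line marks the change from the short to the long arm and the dotted line 130 Mb. Past 130 Mb, 11 of 17 genes were higher with gRNA 1 in 22Rv1 and 0 with gRNA 10, beside 25.6 and 20.0% of all genes. CAV2, CAV1 and MET lie far below the other genes in 22Rv1.

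Position along the chromosome separated the guides. The genes were placed by the RefSeq GRCh38.p14 annotation, with the arms divided at 60 Mb: 9 genes lie on the short (p) arm, 19 on the long (q) arm up to 130 Mb and 17 past 130 Mb. The boundary at 130 Mb was chosen after the values along the chromosome were seen, so counts on either side of it are a description. With gRNA 1 the median log2 fold change of the group was 0.21 on the short arm, 0.36 on the inner long arm and 0.36 past 130 Mb. With gRNA 10 it was 0.40, 0.43 and -0.11. Past 130 Mb, 11 of the 17 genes were higher and 0 lower with gRNA 1, beside 25.6 and 22.9% of all genes. With gRNA 10, 0 were higher and 5 lower, beside 20.0 and 20.6%. Those 5 became 1 without any single gRNA 10 library, 3 without any single control or the first gRNA 1 library, and 8 lower and 1 higher without the third gRNA 1 library.

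Each library showed the same pattern. The 17 genes past 130 Mb had a median of 0.37, 0.36 and 0.33 in the gRNA 1 libraries, on the scale of log2 CPM minus the mean of the controls, and of -0.12, -0.20 and -0.13 in the gRNA 10 libraries. The control libraries lay at -0.03, 0.05 and -0.04, between the guides and apart from both. On the inner long arm the gRNA 10 libraries lay at 0.44, 0.45 and 0.43, all above the controls, whose highest value was 0.08. The third gRNA 1 library, with 0.24 on the short arm, 0.29 on the inner long arm and 0.33 past 130 Mb, was the lowest of its group in each.

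The other genes of chromosome 7 moved in the same blocks. Among 714 tested genes outside the group, the medians with gRNA 1 were 0.58 on the short arm (252 genes), 0.57 on the inner long arm (335 genes) and 0.61 past 130 Mb (127 genes). With gRNA 10 they were 0.51, 0.54 and -0.05. In steps of 10 Mb, the median of all tested chromosome 7 genes with gRNA 10 was 0.29 from 120 to 130 Mb (43 genes) and -0.16 from 130 to 140 Mb (38 genes). With gRNA 1 it was 0.69 and 0.26 over the same steps and 0.70 from 140 to 150 Mb. The group of 45 is richer in genes past 130 Mb, with 37.8% of its genes there against 19.0% of all tested chromosome 7 genes. Its median was below that of the other chromosome 7 genes with both guides, over the chromosome and within each segment. The reason was not tested.

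**Figure D2:**
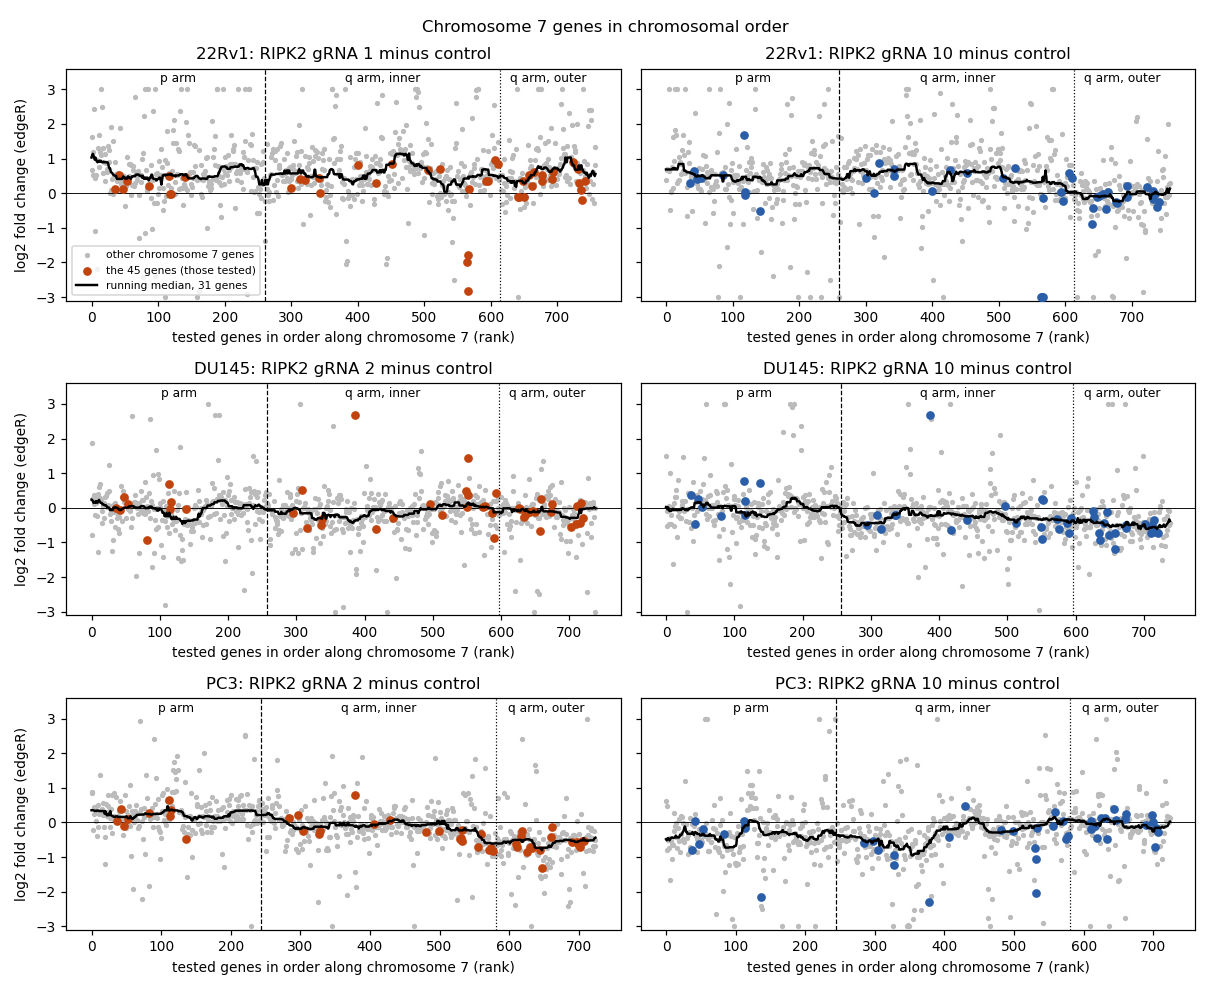
Log2 fold change against control (vertical axes, values beyond 3 drawn at 3) of every tested chromosome 7 gene by its rank along the chromosome (horizontal axes), for the first guide (left) and gRNA 10 (right) in 22Rv1, DU145 and PC3. Coloured points are the genes of the group and the black line is the running median of 31 genes; dashed and dotted lines mark the arm boundary and 130 Mb. In 22Rv1 the running median stays above 0 over the whole chromosome with gRNA 1 and drops to about 0 past the dotted line with gRNA 10, where the median of the other genes is -0.05.

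**Figure D3:**
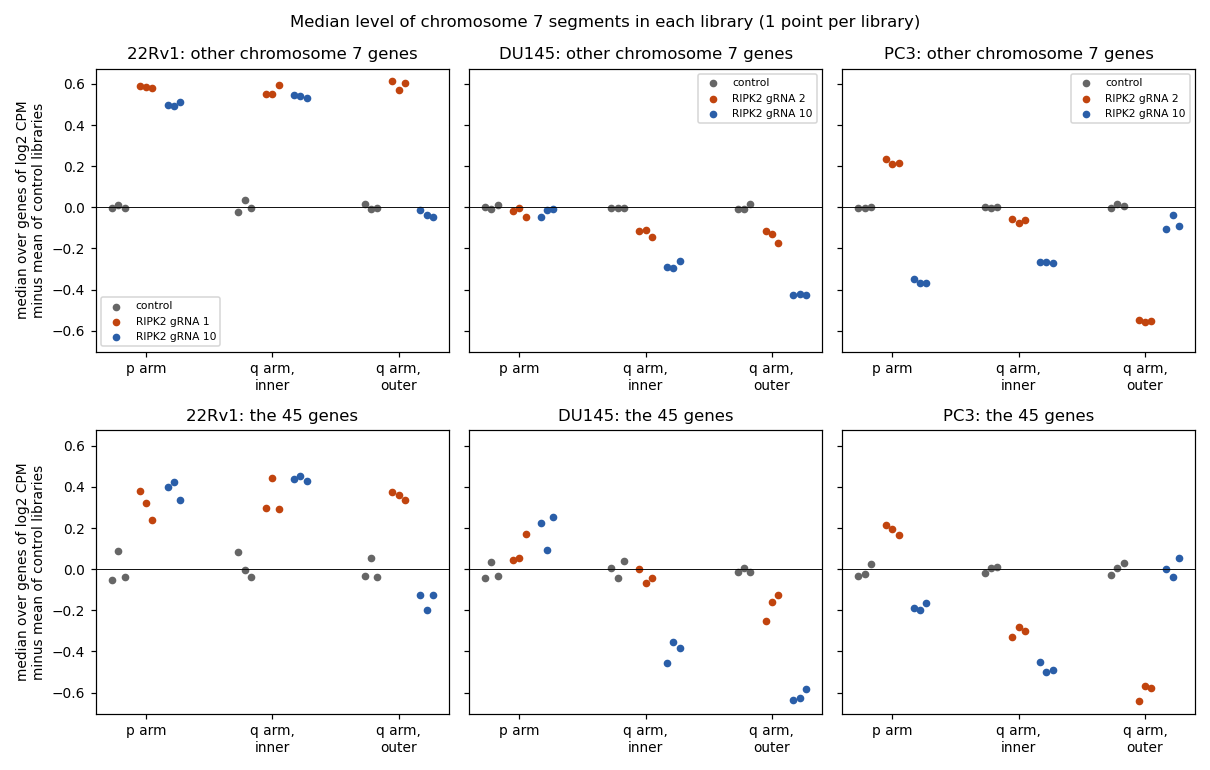
Median over genes of log2 CPM minus the mean of the control libraries (vertical axes), with 1 point per library, for the short arm, the long arm up to 130 Mb (inner) and past it (outer). The upper row shows the other chromosome 7 genes and the lower row the 45 genes. In 22Rv1 the gRNA 10 points of the outer long arm, at -0.12, -0.20 and -0.13 for the 45 genes, lie below the controls while the gRNA 1 points lie above them.

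The 22Rv1 guides were also compared with each other. This difference comes from the same libraries as the comparisons that chose the genes, so it is not independent of the choice, and its counts are a description. Of 44 genes, 23 were higher with gRNA 1 than with gRNA 10 and 4 were lower (edgeR adjusted p under 0.05), beside 18.8 and 16.8% of all genes (35.6% in all). Of the 23, 13 lie past 130 Mb, where 0 of the 17 genes were lower with gRNA 1 and the median difference was 0.55. The 127 other chromosome 7 genes past 130 Mb gave 88 higher, 3 lower and a median of 0.66. On the short arm 1 gene of the group was higher and 1 lower, with a median of -0.11. Without the third gRNA 1 library the counts over the group were 25 higher and 7 lower.

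Single genes moved when the third gRNA 1 library was left out. HSPB1, a small heat shock protein, was at 179.5, 128 and 179 CPM in the 22Rv1 controls, at 171, 172 and 310 with gRNA 1 and at 263, 257 and 268 with gRNA 10. Of its gRNA 1 libraries, the third alone lay above the gRNA 10 group, and without it the difference between the guides went from -0.27 to -0.63 ± 0.12 (edgeR adjusted p = 0.353 and 0.000953). Without that library TRIM24, a bromodomain co-regulator of transcription, differed between the guides by 0.42 ± 0.07 in place of 0.30 (edgeR adjusted p = 0.000490 and 0.0895). ACTB, the cytoplasmic beta-actin, differed by -0.19 ± 0.06 in place of -0.11 (edgeR adjusted p = 0.0306 and 0.367), and the RNA-binding protein gene HNRNPA2B1 by -0.15 ± 0.06 in place of 0.03 (edgeR adjusted p = 0.0421 and 0.870). Against control, the gRNA 1 value of BRAF went from 0.21 to 0.33, that of TRRAP from 0.30 to 0.39, that of PMS2 from 0.13 to 0.23 and that of HNRNPA2B1 from -0.01 to -0.19. These values, not called with all libraries, were called without the third library.

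Chromosome 7 stood first of 23 chromosomes by its median log2 fold change in 22Rv1 with gRNA 1 (0.56 over 758 genes, 467 higher and 36 lower) and second with gRNA 10 (0.40, 347 higher and 64 lower). Chromosome 12 was at 0.40 and 0.44, and chromosome 3 was lowest at -0.59 and -0.63. In DU145 chromosome 7 ranked 18 and 21 of 23 with gRNA 2 and gRNA 10, with medians of -0.06 and -0.23, and in PC3 17 and 22, with -0.06 and -0.26. The 2 guides of a line share the control libraries, so a shared direction within a line partly rests on them.

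**Figure D4:**
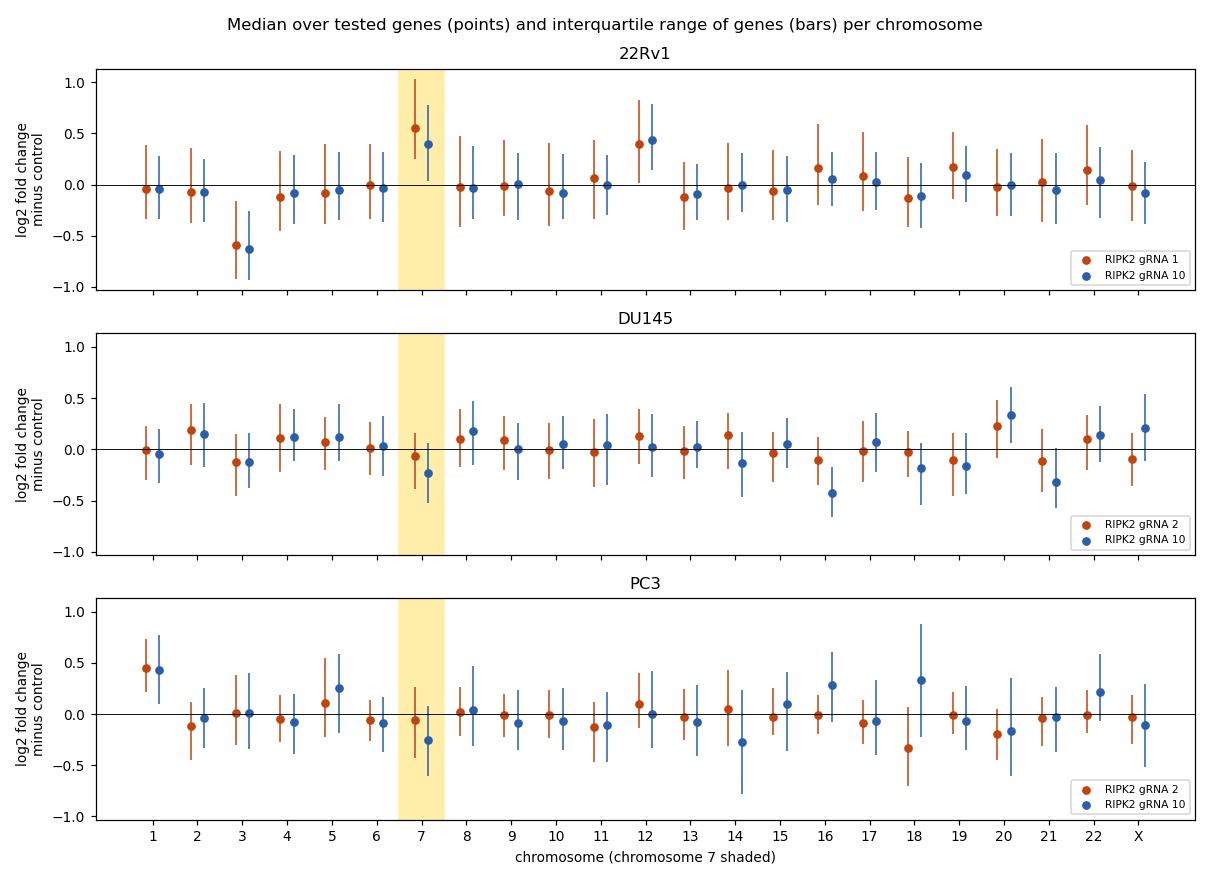
Median log2 fold change against control over the tested genes of each chromosome (points) with the interquartile range of genes (bars), first RIPK2 guide in orange and gRNA 10 in blue. Chromosome 7 (shaded) lies at 0.56 and 0.40 in 22Rv1 and below 0 in DU145 and PC3 with each guide.

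The lowest values of the group in 22Rv1 came from 3 neighbours on 7q31. CAV2 (chr7:116499738-116508541) and CAV1 (chr7:116525009-116561185) encode caveolins, which coat the membrane pits called caveolae, and MET (chr7:116672196-116798377) encodes the receptor of hepatocyte growth factor. MET was at 475, 486 and 450.2 CPM in the 22Rv1 controls, at 53.0, 52.2 and 93.5 with gRNA 1 and at 16.3, 18.5 and 16.8 with gRNA 10. No library of one group reached the range of another, and the highest gRNA 1 value was that of the library rich in mitochondrial reads. The log2 fold changes were -2.83 ± 0.20 (SE) and -4.77 ± 0.22. MET was thus lower with gRNA 10 than with gRNA 1, by 1.94 ± 0.20 on the log2 scale (edgeR adjusted p = 4.38e-05).

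CAV1 was at 23.5, 27.8 and 24.8 CPM in the controls, at 6.97, 5.84 and 9.52 with gRNA 1 and at 2.58, 2.63 and 2.52 with gRNA 10. Its order of groups was that of MET, with no overlap, and it differed between the guides by 1.52 ± 0.19 (edgeR adjusted p = 0.000122). CAV2, the partner of CAV1 in hetero-oligomers, was at 4.75, 5.21 and 4.29 CPM in the controls, at 1.33, 0.811 and 1.43 with gRNA 1 and at 0.413, 0.464 and 0.772 with gRNA 10. The fall ended at the next genes on both sides. TES, a LIM-domain gene before CAV2, was at -0.09 and -0.03 on the log2 scale (edgeR adjusted p = 0.499 and 0.818). CAPZA2 (chr7:116862587-116922049), an actin capping subunit just beyond MET, had 0.12 ± 0.09 and -0.14 ± 0.09. ST7, next after CAPZA2, was higher with both guides, by 0.56 and 0.32 (edgeR adjusted p = 0.00113 and 0.0272).

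The promoters of these neighbours are shown because MET, CAV1 and CAV2 were lower together while CAPZA2 was not called. The 250 bases before each start are printed 5′ to 3′ from the RefSeq table (GRCh38.p14, plus strand), with every CG dinucleotide, the pair of bases that can carry DNA methylation, in capitals. They span chr7:116499488-116499737 for CAV2, chr7:116524759-116525008 for CAV1, chr7:116671946-116672195 for MET and chr7:116862337-116862586 for CAPZA2.
CAV2: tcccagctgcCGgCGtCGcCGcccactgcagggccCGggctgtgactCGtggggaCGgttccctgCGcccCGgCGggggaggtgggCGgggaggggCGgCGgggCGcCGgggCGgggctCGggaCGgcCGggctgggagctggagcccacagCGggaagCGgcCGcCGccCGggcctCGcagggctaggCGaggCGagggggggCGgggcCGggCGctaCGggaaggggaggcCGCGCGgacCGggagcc
CAV1: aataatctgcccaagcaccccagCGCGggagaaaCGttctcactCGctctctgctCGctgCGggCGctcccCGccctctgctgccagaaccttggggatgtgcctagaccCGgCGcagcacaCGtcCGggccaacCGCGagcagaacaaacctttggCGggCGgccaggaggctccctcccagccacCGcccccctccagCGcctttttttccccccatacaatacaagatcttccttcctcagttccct
MET: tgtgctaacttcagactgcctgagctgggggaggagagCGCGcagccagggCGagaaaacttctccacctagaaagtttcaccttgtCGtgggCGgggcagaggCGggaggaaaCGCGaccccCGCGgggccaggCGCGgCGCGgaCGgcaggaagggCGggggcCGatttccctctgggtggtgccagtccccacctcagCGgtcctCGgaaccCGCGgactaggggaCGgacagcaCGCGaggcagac
CAPZA2: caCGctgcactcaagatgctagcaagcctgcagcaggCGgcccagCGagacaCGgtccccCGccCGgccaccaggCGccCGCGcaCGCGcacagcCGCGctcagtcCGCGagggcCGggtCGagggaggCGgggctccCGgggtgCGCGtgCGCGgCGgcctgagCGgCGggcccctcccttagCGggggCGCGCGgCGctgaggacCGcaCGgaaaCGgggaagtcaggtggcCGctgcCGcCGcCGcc
CG reads the same on both strands. It occurs 35 times in the CAV2 window, 18 times in CAV1, 24 times in MET and 38 times in CAPZA2, against a median of 11 over 35116 promoters of that length. At least as many are found in 5.8% of promoters for CAV2, 36.8% for CAV1, 23.7% for MET and 3.3% for CAPZA2. The table held 36 of the 45 genes, whose windows had a median of 24 and a range from 7 to 48. For genes with several starts in the table, CAV1 and CAV2 among them, the first listed was used. DNA methylation was not analysed here.

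In DU145 the 3 genes were not lower together. MET rose there with gRNA 2 from 97.6, 96.0 and 95.3 CPM to 229, 289.7 and 259, a log2 fold change of 1.43 ± 0.09 (edgeR adjusted p = 4.53e-06). With gRNA 10 it was at 120.1, 114 and 113 CPM, 0.26 ± 0.09 above control (edgeR adjusted p = 0.0397). This small call was lost, with adjusted p from 0.0823 to 0.127, when any DU145 control or gRNA 10 library was left out. CAV1 in DU145 stayed within 206 to 223 CPM in the controls and with gRNA 2, and fell to 116, 111 and 112 with gRNA 10 (-0.91 ± 0.07, edgeR adjusted p = 7.66e-06). CAV2 went up with gRNA 2, by 0.47 ± 0.07 (edgeR adjusted p = 0.00105), and fell by 0.56 with gRNA 10 (edgeR adjusted p = 0.000249).

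In PC3 the 3 genes fell with both guides, and more with gRNA 10. MET went from 587, 647 and 622 CPM to 439, 431 and 399 with gRNA 2 and to 279.9, 310.3 and 304 with gRNA 10 (-0.55 ± 0.04 and -1.05 ± 0.04 on the log2 scale, edgeR adjusted p = 5.83e-11 and 1.10e-16). CAV1 went from 493, 523 and 513 CPM to 364, 378 and 374, and to 118, 122 and 129 with gRNA 10 (-0.45 ± 0.04 and -2.05 ± 0.04, edgeR adjusted p = 2.83e-12 and 3.61e-28). CAV2 went from 72.7, 75.5 and 72.4 CPM to 53.5, 52.4 and 52.2, and to 41.6, 41.8 and 47.7 with gRNA 10. All guide libraries of these 3 genes lay below all PC3 control libraries. TES and CAPZA2 were also lower with both guides there, TES by 0.33 and 0.56 and CAPZA2 by 0.22 and 0.17 on the log2 scale, so the change in PC3 was not bounded as in 22Rv1.

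**Figure D5:**
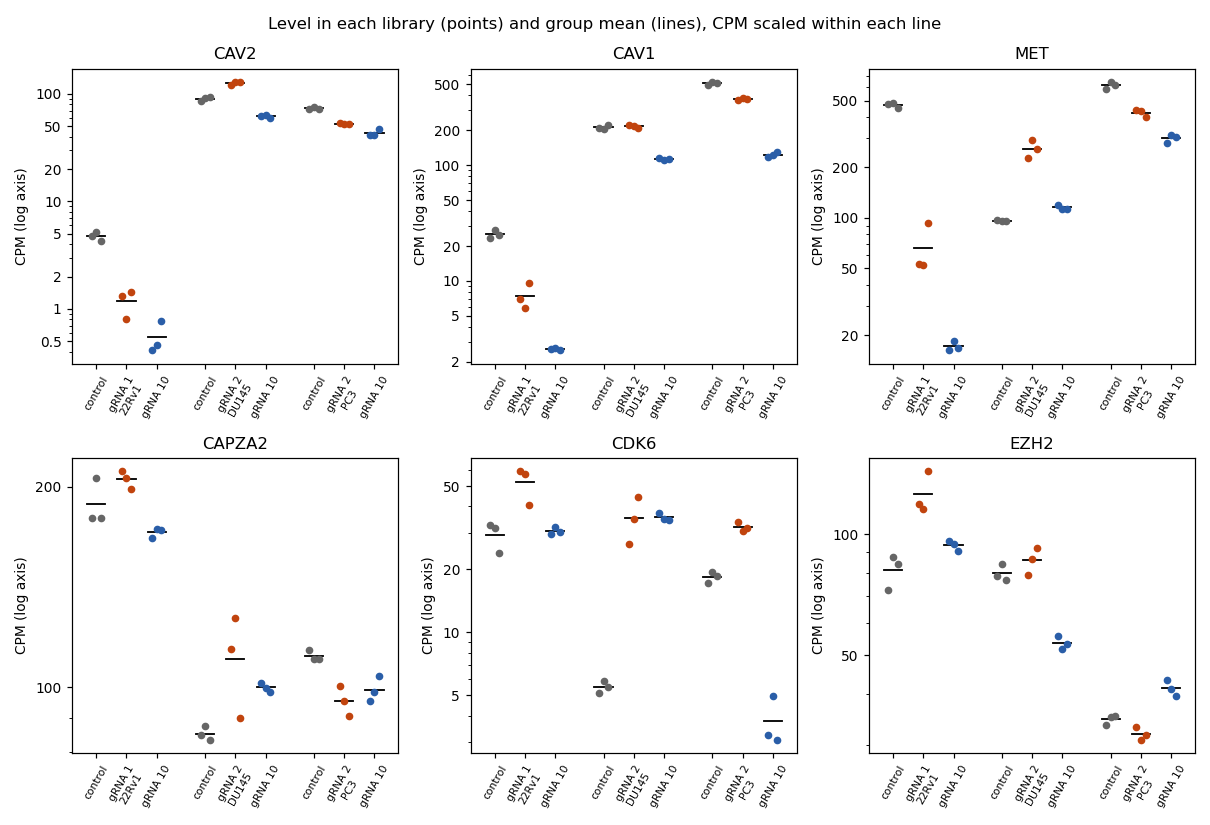
CPM (log axes) of CAV2, CAV1, MET, CAPZA2, CDK6 and EZH2 in each of the 27 libraries (points) with group means (lines), by line and guide. CPM were scaled within each line, so levels may be set beside each other within a line only. MET, CAV1 and CAV2 fall in 22Rv1 with both guides, while CAPZA2 is not called with either. The 3 groups lie well apart for CAV1 and for MET, which goes from 475, 486 and 450.2 CPM to 16.3, 18.5 and 16.8 with gRNA 10. For CAV2 the guide groups lie close together at low levels, with means of 1.19 CPM with gRNA 1 and 0.550 with gRNA 10.

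Among the kinases and receptors of signalling pathways, 9 of 10 genes were tested in 22Rv1. With gRNA 1, 5 were higher and 1 lower, beside 25.6 and 22.9% of all genes. With gRNA 10, 3 were higher and 2 lower, beside 20.0 and 20.6%. RAC1 on the short arm, a small GTPase that directs actin at the cell edge, was at 278, 284 and 286 CPM in the controls, at 368, 385 and 325 with gRNA 1 and at 386, 375 and 381 with gRNA 10. Both guide groups lay above the controls, by 0.35 ± 0.08 and 0.43 ± 0.08. RHEB, the GTPase that activates mTORC1, lies past 130 Mb. It was at 125, 130.3 and 129 CPM in the controls, at 155, 157 and 157 with gRNA 1 and at 117, 110.2 and 115 with gRNA 10. The gRNA 1 libraries lay above and the gRNA 10 libraries below all controls, and the guides differed by 0.45 ± 0.08 (edgeR adjusted p = 0.00104).

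BRAF (chr7:140713328-140924929), the RAF kinase upstream of MEK, followed the same order with more spread. It was at 46.6, 58.3 and 43.0 CPM in the 22Rv1 controls, at 63.3, 61.6 and 46.3 with gRNA 1 and at 33.9, 36.4 and 38.3 with gRNA 10. The gRNA 1 and control libraries overlapped (0.21 ± 0.15), the gRNA 10 libraries lay below both (-0.45 ± 0.15), and the guides differed by 0.66 ± 0.15 (edgeR adjusted p = 0.00545). Of the other kinases, AGK rose from gRNA 10 to gRNA 1 by 0.56 ± 0.09 (edgeR adjusted p = 0.000794), LIMK1, which phosphorylates cofilin, by 0.40 ± 0.10 (edgeR adjusted p = 0.0123), and HIPK2 differed by -0.03 ± 0.13 (edgeR adjusted p = 0.894). STRIP2, at the end of the inner long arm, was above control by 0.85 ± 0.13 and 0.43 ± 0.13. The 14-3-3 gene YWHAG was at -0.00 ± 0.13 with gRNA 1 and 0.48 ± 0.13 with gRNA 10. It was at 484, 478 and 487 CPM in the controls and at 538, 535 and 372 with gRNA 1, so the mitochondria-rich library lay below all controls and the others above them. Without it the gRNA 1 value was 0.14 ± 0.06, and the difference between the guides went from -0.49 to -0.35 (edgeR adjusted p = 0.0131 and 0.000351).

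In DU145 this class gave 3 higher and 2 lower of 10 genes with gRNA 2, beside 17.1 and 17.0% of all genes. With gRNA 10 it gave 1 higher and 5 lower, beside 20.2 and 19.8%. RHEB fell in DU145 with gRNA 10, by 0.50 ± 0.08 (edgeR adjusted p = 0.000712), and was 0.06 ± 0.08 with gRNA 2 (edgeR adjusted p = 0.560). BRAF in DU145 was at 33.2, 34.7 and 31.6 CPM in the controls, and its guide libraries ran from 28.7 to 36.3, with no call for either guide. In PC3, BRAF fell with gRNA 2 from 29.2, 31.4 and 31.7 CPM to 18.5, 19.8 and 17.7 (-0.72 ± 0.06, edgeR adjusted p = 2.63e-11) and was 33.5, 35.4 and 32.2 with gRNA 10. SMO is the receptor-like transducer of Hedgehog signals. In DU145 it fell from 48.5, 44.5 and 47.2 CPM to 27.7, 25.9 and 23.7 with gRNA 2, and to 26.0, 30.8 and 28.3 with gRNA 10 (-0.86 ± 0.10 and -0.72 ± 0.10 on the log2 scale, edgeR adjusted p = 0.000159 and 0.000249). In PC3 it fell from 85.5, 82.2 and 85.1 CPM to 49.5, 50.4 and 52.0, and to 61.6, 58.7 and 60.2 with gRNA 10 (-0.74 ± 0.04 and -0.49 ± 0.04, edgeR adjusted p = 3.40e-15 and 1.78e-11).

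CDK6 (chr7:92604921-92836573) pairs with D-type cyclins to phosphorylate RB1 in the G1 phase. In 22Rv1 it was at 32.7, 31.4 and 23.9 CPM in the controls, at 58.9, 57.0 and 40.5 with gRNA 1 and at 29.4, 32.0 and 30.1 with gRNA 10. The gRNA 1 libraries lay above all others, with the mitochondria-rich library the lowest of them, and the gRNA 10 libraries lay within the range of the controls. The guides differed by 0.77 ± 0.16 (edgeR adjusted p = 0.00326), although CDK6 lies far inside of 130 Mb. In DU145, CDK6 was among the highest rises of the group, from 5.14, 5.85 and 5.51 CPM to 26.5, 34.9 and 44.6 with gRNA 2 and to 37.2, 34.7 and 34.6 with gRNA 10 (2.68 ± 0.18 and 2.69 ± 0.18 on the log2 scale, edgeR adjusted p = 5.04e-06 and 2.92e-06). In PC3 the guides moved it in opposite directions, from 17.2, 19.5 and 18.6 CPM to 33.7, 30.6 and 31.7 with gRNA 2 and to 3.24, 4.96 and 3.08 with gRNA 10 (log2 fold changes of 0.80 ± 0.08 and -2.29 ± 0.11, edgeR adjusted p = 9.82e-10 and 5.17e-16).

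CDK5, a kinase activated by p35 in place of a cyclin, and the initiator caspase gene CASP2 both lie past 130 Mb. CDK5 was higher with gRNA 1 than with gRNA 10 in 22Rv1 by 0.72 ± 0.10 (edgeR adjusted p = 0.000237). CASP2 was at 59.6, 64.0 and 65.0 CPM in the 22Rv1 controls, at 79.9, 80.8 and 80.6 with gRNA 1 and at 50.9, 52.9 and 55.0 with gRNA 10. Its 3 groups did not overlap. In DU145 CASP2 fell with both guides, from 86.5, 90.5 and 85.5 CPM to 50.5, 52.2 and 61.8 with gRNA 2 and to 37.2, 39.7 and 37.0 with gRNA 10 (-0.67 ± 0.09 and -1.20 ± 0.09 on the log2 scale, edgeR adjusted p = 0.000438 and 7.40e-06). In PC3 it fell with gRNA 2, by 0.81 ± 0.05, and rose with gRNA 10, by 0.38 ± 0.04 (edgeR adjusted p = 8.34e-16 and 3.04e-09).

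Of 12 chromatin and transcription genes, 6 were higher with gRNA 1 in 22Rv1 and 0 lower, beside 25.6 and 22.9% of all genes. With gRNA 10 6 were higher and 3 lower, beside 20.0 and 20.6%. KMT2E, a trithorax-related protein, had the highest smaller value of both guides, 0.69. It was at 66.4, 77.3 and 62.3 CPM in the controls, at 108, 106 and 119 with gRNA 1 and at 112, 116 and 113 with gRNA 10. Every guide library lay above every control, and the guides overlapped (difference -0.03 ± 0.10, edgeR adjusted p = 0.823). TAF6, a subunit of TFIID, was at 95.9, 74.2 and 94.6 CPM in the controls, at 155, 159 and 164 with gRNA 1 and at 138, 132 and 124 with gRNA 10. It also stood above the controls with both guides, by 0.85 ± 0.11 and 0.57 ± 0.11.

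EZH2 (chr7:148807383-148884291), the methyltransferase of Polycomb repressive complex PRC2, lies past 130 Mb. In 22Rv1 it was at 72.8, 87.6 and 84.4 CPM in the controls, at 119, 115 and 143 with gRNA 1 and at 96.3, 94.4 and 90.6 with gRNA 10. Both guide groups lay above all controls, by 0.62 ± 0.11 and 0.20 ± 0.11. The value with gRNA 10 was not called, though it was without the third gRNA 1 library (0.21 ± 0.07), and the guides differed by 0.42 ± 0.11 (edgeR adjusted p = 0.0115). In DU145 it was not called with gRNA 2 (0.11 ± 0.08, edgeR adjusted p = 0.352) and fell from 78.6, 84.3 and 77.1 CPM to 55.9, 51.8 and 53.3 with gRNA 10 (-0.58 ± 0.08, edgeR adjusted p = 0.000412). In PC3 it was at 33.5, 35.1 and 35.3 CPM in the controls, at 33.1, 30.9 and 31.6 with gRNA 2 and at 43.3, 41.3 and 39.6 with gRNA 10. The rise with gRNA 10 passed the test (0.26 ± 0.05, edgeR adjusted p = 7.49e-05) and the value with gRNA 2 did not (-0.12 ± 0.06, edgeR adjusted p = 0.0587).

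The other chromatin genes of 22Rv1 followed their segments only in part. Past 130 Mb, PAXIP1, a BRCT-domain partner of the KMT2C and KMT2D complexes, differed between the guides by 0.61 ± 0.08 (edgeR adjusted p = 0.000280), while KMT2C, a histone H3 lysine methyltransferase, differed by 0.12 ± 0.11 (edgeR adjusted p = 0.413). JAZF1 on the short arm, a zinc finger protein of the NuA4 complex, was higher with gRNA 1 than with gRNA 10 by 1.00 ± 0.16 (edgeR adjusted p = 0.000791). CBX3 and HNRNPA2B1, also on the short arm, had values between -0.04 and 0.04 with both guides when all libraries were used. NFE2L3, which lies next to them, was higher with both guides, by 0.51 and 1.69. GTF2I and BAZ1B on the inner long arm, where the Williams syndrome region lies, were lower with gRNA 1 than with gRNA 10, by 0.51 and 0.31 (edgeR adjusted p = 0.0260 and 0.0413). In both, the third gRNA 1 library was the lowest of its group. GTF2I was at 145, 128 and 87.9 CPM with gRNA 1 against 87.5, 93.5 and 98.4 in the controls, and BAZ1B at 288, 290.4 and 223 against 243, 249.7 and 233. Without that library the guides differed by -0.34 and -0.21 (edgeR adjusted p = 0.00388 and 0.00962), and the gRNA 1 values against control went from 0.37 to 0.55 for GTF2I and from 0.14 to 0.25 for BAZ1B, both then called. GTF2I, PMS2 and POLR2J have near-identical copies on chromosome 7 that the authors' counting could split, so their values are uncertain.

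In DU145 the chromatin class gave 0 higher and 5 lower genes with gRNA 2, beside 17.1 and 17.0% of all genes. With gRNA 10 it gave 1 higher and 9 lower, beside 20.2 and 19.8%. TRRAP, the scaffold of histone acetyltransferase complexes, fell with both guides from 154, 141 and 142 CPM to 84.4, 87.7 and 117, and to 91.0, 97.9 and 92.3 with gRNA 10 (-0.60 ± 0.12 and -0.64 ± 0.12, edgeR adjusted p = 0.00343 and 0.00173). GTF2I fell likewise, by 0.58 and 0.62 (edgeR adjusted p = 0.000447 and 0.000174). Every guide library of both genes lay below all DU145 controls. In PC3, 2 of the 12 were higher and 7 lower with gRNA 2, beside 32.1 and 31.5% of all genes. With gRNA 10, 2 were higher and 10 lower, beside 37.9 and 35.6%. KMT2C fell there with both guides, from 47.8, 55.1 and 53.8 CPM to 31.1, 35.0 and 29.2, and to 32.8, 37.2 and 26.1 with gRNA 10 (-0.72 ± 0.13 and -0.71 ± 0.13, edgeR adjusted p = 0.00136 and 0.00117).

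ACTB, the cytoplasmic beta-actin gene that is often used to scale other genes, was not constant. In 22Rv1 it was at 2685, 2388 and 2664 CPM in the controls, at 3528, 3571 and 4049 with gRNA 1 and at 4043, 3999 and 3948 with gRNA 10. Every guide library lay above every control, by 0.53 ± 0.09 and 0.63 ± 0.09 on the log2 scale. In DU145 ACTB fell with gRNA 10 (-0.47 ± 0.14, edgeR adjusted p = 0.0228) and in PC3 it rose with gRNA 2 (0.38 ± 0.03, edgeR adjusted p = 2.17e-11). ZYX, which encodes the focal adhesion protein zyxin and lies past 130 Mb, differed between the 22Rv1 guides by 0.80 ± 0.11 (edgeR adjusted p = 0.000342). In PC3 ZYX went from 1492, 1455 and 1529.6 CPM to 575, 601 and 607 with gRNA 2 (-1.33 ± 0.03, edgeR adjusted p = 2.95e-24) and lay slightly above the controls, at 1603, 1536 and 1605, with gRNA 10 (0.08 ± 0.03, edgeR adjusted p = 0.0275).

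The 4 sequence-specific transcription factors shared no direction. NFE2L3, a CNC-family factor on the short arm, was at 4.75, 4.35 and 4.88 CPM in 22Rv1 controls, at 7.03, 5.84 and 7.08 with gRNA 1 and at 14.3, 16.8 and 14.2 with gRNA 10. It rose from gRNA 1 to gRNA 10, by 1.18 ± 0.13 (edgeR adjusted p = 6.83e-05). The short arm median of the group rose less between the guides, and that of the other short arm genes did not rise. NFE2L3 also rose with both guides in DU145, by 0.70 ± 0.08 and 0.78 ± 0.08 (edgeR adjusted p = 0.000200 and 5.61e-05). CREB3L2, a membrane-bound bZIP factor past 130 Mb, was 0.79 ± 0.15 higher with gRNA 1 than with gRNA 10 (edgeR adjusted p = 0.00194). AHR, the receptor of dioxins, was not called with either guide in 22Rv1 and fell in DU145 with gRNA 2 (-0.93 ± 0.14, edgeR adjusted p = 0.000946).

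The ubiquitin-pathway genes CUL1, MKRN1 and NUB1, all past 130 Mb, were higher with gRNA 1 than with gRNA 10 in 22Rv1, by 0.52, 0.55 and 0.61 (edgeR adjusted p = 0.00150, 0.000454 and 0.000459). CUL1 is the scaffold of SCF ubiquitin ligases and MKRN1 is itself a ligase. In PC3 both were lower with gRNA 2, by 0.42 and 0.87, and higher with gRNA 10, by 0.10 and 0.13. The DNA repair genes were not called between the 22Rv1 guides, which does not show that their levels were equal. PMS2, a mismatch repair endonuclease subunit, had -0.27 ± 0.12 (edgeR adjusted p = 0.0962). XRCC2, of homologous recombination and past 130 Mb, had 0.22 ± 0.15 (edgeR adjusted p = 0.280). HSPB1 was lower in PC3 with both guides, by 0.33 and 1.22 (edgeR adjusted p = 2.19e-06 and 1.06e-16).

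TNPO3, which carries splicing factors into the nucleus, was at 75.8, 68.0 and 67.8 CPM in 22Rv1 controls, at 148, 152 and 107 with gRNA 1 and at 105, 107 and 105 with gRNA 10. The mitochondria-rich library was level with the gRNA 10 group, and without it the gRNA 1 value rose from 0.95 to 1.08. SND1, a nuclease of RNA decay, rested on that library as well. It was at 334, 346 and 168 CPM with gRNA 1 against 239, 195 and 233 in the controls, so its log2 fold change of 0.35 became 0.60 without the third library, and its difference between the guides went from 0.32 to 0.57 (edgeR adjusted p = 0.282 and 0.000131). LUC7L2, a U1 snRNP factor past 130 Mb, and IMPDH1, of guanine nucleotide synthesis, were higher with gRNA 1 than with gRNA 10, by 0.47 and 0.55 (edgeR adjusted p = 0.00391 and 0.00285).

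Over the whole group, DU145 moved little with gRNA 2 and down with gRNA 10. With gRNA 2, 7 of 45 genes were higher and 12 lower, beside 17.1 and 17.0% of all 14908 genes tested (34.0% in all), with a median of -0.04 beside 0.01. With gRNA 10, 5 were higher and 28 lower, beside 20.2 and 19.8% of all genes (40.0% in all), with a median of -0.43 beside 0.00. The medians with gRNA 10 were 0.21 on the short arm, -0.35 on the inner long arm and -0.58 past 130 Mb, where 15 of 17 genes were lower and all 17 lay below 0. The 694 other chromosome 7 genes had medians of -0.01, -0.28 and -0.45 in the same segments. The genes CDK6, NFE2L3 and MET were called higher with both DU145 guides and 10 genes lower with both, beside 8.05 and 8.02% of all genes, in comparisons that share the controls. The call of MET with gRNA 10 was lost when 1 control or gRNA 10 library was left out. Among the 10 were SMO, CASP2, TRRAP and GTF2I.

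The guides of DU145 differed in 23 of the 45 genes. Of these 21 were higher and 2 lower with gRNA 2 (edgeR adjusted p under 0.05), beside 19.2 and 19.6% of all genes (38.8% in all), and the median difference was 0.24. Past 130 Mb 11 of 17 were higher and 0 lower, as were 44 and 11 of 125 other chromosome 7 genes there. The count of lower genes past 130 Mb with gRNA 2 against control, 5, became 8 without the third gRNA 2 library, which had the smallest scaling factor of the line and 2.89% mitochondrial counts, and 3 without the first or the second control library.

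In PC3 the median of the group fell with both guides. The inner long arm was lower with each guide, while the short arm and the genes past 130 Mb differed between the guides. With gRNA 2, 9 of 45 genes were higher and 30 lower, beside 32.1 and 31.5% of all 14718 genes tested (63.6% in all), with a median of -0.39 beside 0.01. With gRNA 10, 9 were higher and 29 lower, beside 37.9 and 35.6% of all genes (73.5% in all), with a median of -0.19 beside 0.01. With gRNA 2 the short arm genes had a median of 0.19 (6 of 9 higher, 1 lower), the inner long arm -0.28 and the genes past 130 Mb -0.61 (0 higher, 15 of 17 lower). With gRNA 10 the values were -0.18 (0 higher, 7 lower), -0.49 (2 higher and 16 of 19 lower) and -0.00 (7 higher, 6 lower). The 13 called past 130 Mb with gRNA 10 became 7 without the second control library.

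The PC3 guides differed from each other in 40 of 45 genes, 19 higher and 21 lower with gRNA 2, beside 36.5 and 36.9% of all genes (73.4% in all). All 9 short arm genes were higher with gRNA 2 and 15 of the 17 genes past 130 Mb were lower (edgeR adjusted p under 0.05), with median differences of 0.51 and -0.52. The 235 other short arm genes gave 182 higher and 19 lower, and the 127 others past 130 Mb gave 14 higher and 94 lower. A change along chromosome 7 was thus not absent from DU145 and PC3, and its direction and segments differed from those in 22Rv1. No gene of the group was higher with both PC3 guides, 18 were lower with both and 14 were called in opposite directions, beside 17.9, 16.3 and 15.5% of all genes, and the guides share their controls.

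The difference between lines was fitted in one model of 27 libraries, with the mean of both guides against control as the effect. Against DU145, the 22Rv1 effect was higher for 28 of 45 genes and lower for 6, beside 23.5 and 23.6% of 16322 genes (47.1% in all), and the median difference was 0.46. Against PC3 it was higher for 32 and lower for 3, beside 23.3 and 22.0% (45.3% in all), with a median of 0.49. The 22Rv1 side chose the genes, so these counts are a description. The lower ones were MET, CAV1 and CAV2 in both comparisons, and CDK6, CREB3L2 and CAPZA2 against DU145. SMO, counted as higher in both comparisons (1.70 and 1.54, edgeR adjusted p = 0.0115 and 0.0221), rests on the 23 reads of the third gRNA 1 library in 22Rv1. Without it the differences were 0.76 and 0.60 (edgeR adjusted p = 0.252 and 0.381).

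Genes that work with the 45 but lie elsewhere were followed from a list of 68 paralogs, subunits and regulators. In 22Rv1, 11 of 66 tested were higher and 26 lower with gRNA 1 (median -0.22), beside 25.6 and 22.9% of all genes. With gRNA 10, 13 were higher and 17 lower (median -0.08), beside 20.0 and 20.6%. Of 8 on chromosome 3, 7 were lower with each guide and 1, LPP, a zyxin relative, was higher. All 6 on chromosome 12 were tested. Of these, 3 were higher with gRNA 1 and 4 with gRNA 10, and 0 were lower with either guide. Of all tested chromosome 3 genes, 63.1 and 64.0% were lower with gRNA 1 and gRNA 10. Of those on chromosome 12, 50.4 and 53.1% were higher with gRNA 1 and gRNA 10. Over the other chromosomes, 7 of 52 tested partners were higher and 19 lower with gRNA 1. With gRNA 10, 8 were higher and 10 lower. In DU145 11 of 67 were higher and 12 lower with gRNA 2, beside 17.1 and 17.0% of all genes. With gRNA 10 it was 11 and 7, beside 20.2 and 19.8%. The DU145 count of 23 in all with gRNA 2 became 12, 12 and 14 without the first, the second or the third control library. The count of 18 with gRNA 10 became 11 without the first or the second control library, 10 or 11 without the second or the third gRNA 10 library, and 31 without the third gRNA 2 library. In PC3 24 of 65 were higher and 22 lower with gRNA 2, beside 32.1 and 31.5% of all genes. With gRNA 10 it was 37 and 14, beside 37.9 and 35.6%.

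Among these partners, ACTG1, the gamma-actin paralog of ACTB, fell in 22Rv1 while ACTB was higher, by 0.79 and 0.95 with gRNA 1 and gRNA 10 (edgeR adjusted p = 0.000221 and 6.68e-05). CCND3, a D-type cyclin of CDK6, fell by 4.27 and 4.31 in 22Rv1 and was 0.91 higher in DU145 with gRNA 10. CAVIN1, the caveolar coat protein, rose in 22Rv1 by 1.16 and 2.77, as CAV1 and CAV2 fell. The PRC2 subunit SUZ12 fell by 0.70 and 0.47, and the other, EED, was at -0.12 and -0.08. GLI2 and PTCH1, of the SMO pathway, fell in 22Rv1, by 1.45 and 2.17 and by 1.13 and 1.66. CYP1A1, a target of AHR, rose by 1.59 and 1.26 in 22Rv1 and by 2.92 and 1.71 in PC3.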

How the data were processed

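Total RNA of 27 libraries from 22Rv1, DU145 and PC3 cells was made into strand-specific mRNA libraries and sequenced as paired 150-base reads, per the labels' protocols. For every line the authors deposited raw counts, 1 file of whole numbers by gene symbol, per the file headers. FastQC, STAR, edgeR and the build hg38 are named in the submitters' processing notes. The counting program, annotation and filter are not given in the sources used here. Repeated symbols were summed (6 in 22Rv1, 2 in DU145, 2 in PC3), and 0 other value columns were present. Groups and replicate numbers came from the sample titles.

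Each line was fitted apart on its 9 libraries with edgeR 4.0.16 in R 4.3.3 (filterByExpr with a minimum of 10 counts and a total of 15, TMM scaling, robust quasi-likelihood F test, Benjamini-Hochberg over all genes tested, threshold 0.05). Log2 fold changes are those of edgeR and CPM use TMM-scaled totals. Lines were compared in 1 model of 27 libraries on the genes listed in all 3 tables. Positions and promoters came from RefSeq (GRCh38.p14) by symbol, biotypes and identifiers from GENCODE 29. The 45 genes, the classes and the partner list were chosen with earlier results of these data known, so lists are described by counts and medians with no test.

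The deviations from the group means of libraries with the same replicate number correlated between -0.08 and 0.34 in 22Rv1, -0.19 and 0.07 in DU145 and -0.05 and 0.06 in PC3, with 1, 0 and 0 of 9 pairs over 0.1. By the numbers in the library names, which differ from those of the titles for some groups, they correlated between -0.25 and 0.23 over 7 pairs, -0.13 and 0.16 over 7 pairs and -0.04 and 0.04 over 6 pairs, with 1, 1 and 0 over 0.1. Neither numbering therefore met the rule for pairing, a correlation over 0.1 in every pair. Named genes were RIPK2, the 45 genes, their partners, and the 4 largest rises and 4 largest falls among other chromosome 7 genes that had the same sign with both 22Rv1 guides, no overlap of the 6 knockout with the 3 control libraries and 100 or more counts on average in 1 group, ranked by the smaller absolute change. Some genes and markers under these rules are not reported here. ST7 and TES were added after their values were seen, as neighbours of the MET block. The scripts were tested on simulated data. Alternatives were RLE factors, TMM without chromosome 7, total counts, no filter, at least 10 counts in every library, the groups compared alone, DESeq2 1.42.0, a replicate block, and leaving out each library. The library left out of single genes and the library-name numbers were chosen after seeing the data.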

Additional observations from a re-analysis of the deposited data

Results flagged for a closer look

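For the 45 genes, the mean effect of both RIPK2 guides in 22Rv1 was compared with that in each other line. The test was that of the difference in 1 edgeR model (adjusted p under 0.05). Against DU145, 34 genes differed, and against PC3, 35, beside 47.1 and 45.3% of 16322 genes. The 22Rv1 side chose the genes, so these counts are a description. Both counts hold SMO, which was not called without the third gRNA 1 library of 22Rv1 (edgeR adjusted p = 0.252 and 0.381). The 22Rv1 effect minus the DU145 effect, on the log2 scale, was -4.648 for MET, 0.6465 for EZH2, -2.244 for CDK6, 0.3247 for RAC1, 0.8494 for ACTB, 0.2793 for RHEB, -2.092 for CAV1 and -2.506 for CAV2. The 22Rv1 effect minus the PC3 effect was -2.984 for MET, 0.3601 for EZH2, 1.206 for CDK6, 0.442 for RAC1, 0.3927 for ACTB, 0.3889 for RHEB, -1.266 for CAV1 and -1.915 for CAV2. The largest adjusted p among these genes was 0.0128, for ACTB against PC3. BRAF differed in neither comparison (-0.02 and 0.20, edgeR adjusted p = 0.953 and 0.267). For MET, CAV1 and CAV2 the mean over guides hides a difference between the 22Rv1 guides themselves, and for CDK6 in PC3 it averages a rise and a fall.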

How the results depend on the processing

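Under the alternatives tried, no called value that was followed gene by gene changed sign. In 22Rv1 these were the tested genes of the 45 with each guide against control. In DU145 they were CDK6, NFE2L3, MET, SMO, CASP2, TRRAP and GTF2I, and in PC3 KMT2C, MET, SMO and CAV2. Other single genes were not followed under all alternatives. Scaling by total counts moved the median over the 45 genes to -0.1442 (DU145 gRNA 2), -0.4714 (DU145 gRNA 10), -0.3528 (PC3 gRNA 2) and -0.1277 (PC3 gRNA 10), and the genes called past 130 Mb to 1 (22Rv1 gRNA 10) and 8 (DU145 gRNA 2). Without a filter the 22Rv1 gRNA 1 median was 0.3024. Fitting only the groups compared gave 155 chromosome 7 genes for DU145 gRNA 2, and 11 and 38 partners for DU145 gRNA 2 and gRNA 10. Leaving out 1 library at a time gave 14 to 29 of the 45 genes called for 22Rv1 gRNA 10, and medians of 0.0177 to 0.10 (22Rv1 gRNA 10), -0.44 to -0.39 (DU145 gRNA 10), -0.42 to -0.34 (PC3 gRNA 2) and -0.22 to -0.17 (PC3 gRNA 10). It gave 1 to 9 genes past 130 Mb for 22Rv1 gRNA 10, with 9 without the third gRNA 1 library, 3 to 8 for DU145 gRNA 2 and 7 to 13 for PC3 gRNA 10. Chromosome 7 genes for DU145 gRNA 2 ran from 156 to 324, and DU145 partners from 12 to 30 (gRNA 2) and 10 to 31 (gRNA 10). The cause of these shifts was not tested, apart from the fewer libraries or genes each fit holds. The replicate block gave 27, 23, 18, 28, 40 and 38 of the 45 genes for the first guide and gRNA 10 of 22Rv1, DU145 and PC3 in turn, and 35 and 35 genes between lines. It ended the call of MET in DU145 with gRNA 10 (0.26, edgeR adjusted p = 0.0692), as did total counts (0.111) and no filter (0.0739). No scaling moved the median of all genes by 0.1. A library of 17958558 counts cannot resolve genes at the depth of SMO in 22Rv1.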

Other observations

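Outside the 45 genes, 714 chromosome 7 genes were tested in 22Rv1. Of these, 278 were higher and 14 lower in all 22Rv1 knockout libraries than in all controls, counting those with 100 or more counts on average in 1 group. The share of all genes under this joint rule is not given here. With gRNA 1 alone, 28.1% of all tested genes were higher than all controls without overlap and 27.5% lower. With gRNA 10 alone it was 32.1% in each direction. Among the largest rises were those of ACHE (acetylcholinesterase), SEMA3C (a secreted semaphorin) and TMEM184A. SEMA3C went from 4.16, 5.21 and 5.57 CPM in the controls to 92.0, 81.7 and 49.3 with gRNA 1 and to 60.3, 61.1 and 64.1 with gRNA 10. TMEM184A went from 3.36, 4.14 and 4.45 CPM to 28.8, 30.3 and 56.1, and to 257, 255 and 261 with gRNA 10. ACHE was at 5.27, 4.81 and 27.5 CPM with gRNA 1, so the third library, rich in mitochondrial reads, stood far above the others, against 0.533, 0.591 and 0.804 in the controls.

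Among the largest falls were those of ADCY1 (an adenylyl cyclase), GHRHR (the receptor of growth hormone releasing hormone) and STEAP1 (a prostate cell surface antigen). STEAP1 went from 132, 159.9 and 136 CPM to 35.6, 30.6 and 38.6, and to 50.0, 48.8 and 44.9. ADCY1 and GHRHR fell with gRNA 1 by 2.92 and 2.83 on the log2 scale, and with gRNA 10 by 4.26 and 2.40. The median over all tested chromosome 7 genes was 0.56 and 0.40 with the same guides.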
